A study of Mus musculus with 5 samples.

Results

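Leptin and the cytokines of the interleukin-6 family signal through related receptors, and 8 genes of this system were followed through 5 single-cell libraries of mouse femur marrow stroma. The genes were chosen by name, 8 of 30099 gene symbols in the libraries: the receptor chains Lepr, Il6st, Osmr and Lifr, the transcription factor Stat3, its inhibitor Socs3, and the ligands Il6 and Lif. All 8 were detected in every library. Each was measured as summed UMIs, the molecules counted after removal of duplicate reads, and as the share of cells with a UMI, by library and by cell class.

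Cells positive for the reporter tdTomato were sorted out of dissociated femur marrow of Lepr-cre; R26R-tdTomato mice, in which a Cre recombinase driven from the leptin receptor gene switches on that red reporter for good. Cells without Lepr can therefore carry the reporter where an ancestor expressed the driver. There was 1 library for each of 5 groups, and all shared the Cre and the reporter. The aged-injury library came from mice of 18 months, 1 week after marrow ablation, a surgical emptying of the marrow cavity. The aged library came from mice of the same age without surgery. The exhausted library came from mice of 15 weeks with ablations at 9 and 13 weeks, the naive library from mice of 15 weeks with 1 ablation at 13 weeks, and the control library from uninjured mice of 15 weeks. The ablated old and young mice thus differed in time after surgery as well as in age. The labels do not give the number or sex of the animals, whether animals were pooled, or batches. With no replicate there is no test: every interval is a 95% counting interval that leaves out differences between mice and between preparations, and a difference between libraries cannot be told apart from a difference between animals or days.

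After a filter on genes, UMIs and mitochondrial share, 19497, 7560, 6277, 5242 and 9253 cells remained in aged-injury, aged, exhausted, naive and control, at medians of 6671 to 9512 UMIs. Pairs of libraries shared 0 to 5 cell labels. Cells were assigned to classes by scores over fixed marker lists that hold none of the 8 genes. The reticular class, defined by Cxcl12, Adipoq, Kitl, Ebf3, Foxc1 and 5 other genes, held 14425, 6403, 2517, 2918 and 6645 cells in the same order, with median reticular scores of 0.687, 0.733, 0.717, 0.660 and 0.760. The score is a range, and 3417 of 47829 cells lay within 0.05 of its cut. In these cells the median score was 0 in every library for the endothelial, macrophage, B-lineage, T and NK, and pan-leukocyte lists, at most 0.0198 for neutrophils, at most 0.0601 for erythroid cells and 0.0899 to 0.136 for the osteoblast lineage. No class could be assigned to 9.06% of cells, which enter no class value.

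Leptin, a hormone of fat cells, binds the receptor encoded by Lepr, which signals as a homodimer. Interleukin-6, oncostatin M and leukaemia inhibitory factor signal instead through receptor complexes that share gp130, the product of Il6st. The chain encoded by Osmr pairs with gp130 to bind oncostatin M, and the chain encoded by Lifr pairs with it to bind leukaemia inhibitory factor. All of these receptors activate JAK kinases, which phosphorylate Stat3, and active Stat3 induces Socs3, which binds the receptors and the kinases and ends the signal. In marrow, Lepr marks the perivascular reticular stroma that supplies Cxcl12 and stem cell factor to blood stem cells.

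In reticular-gated cells, Lepr, Lifr, Osmr and Socs3 had lower levels and Il6 a higher level in each ablated library than in the uninjured library of its age. These are levels over the whole class, which was not made of the same cells in each library. Il6st and Stat3 kept ratios of 0.892 to 1.12 in all 5 comparisons. Lepr was 2.04-fold lower in naive than in control and 1.91-fold lower in aged-injury than in aged. Age without injury moved none of the 7 genes with at least 20 UMIs per 1000000 UMIs of the class (CPM) by 1.5-fold. Lif, below 20 CPM in every library, was 3.76-fold higher in aged than in control.

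**Figure D1:**
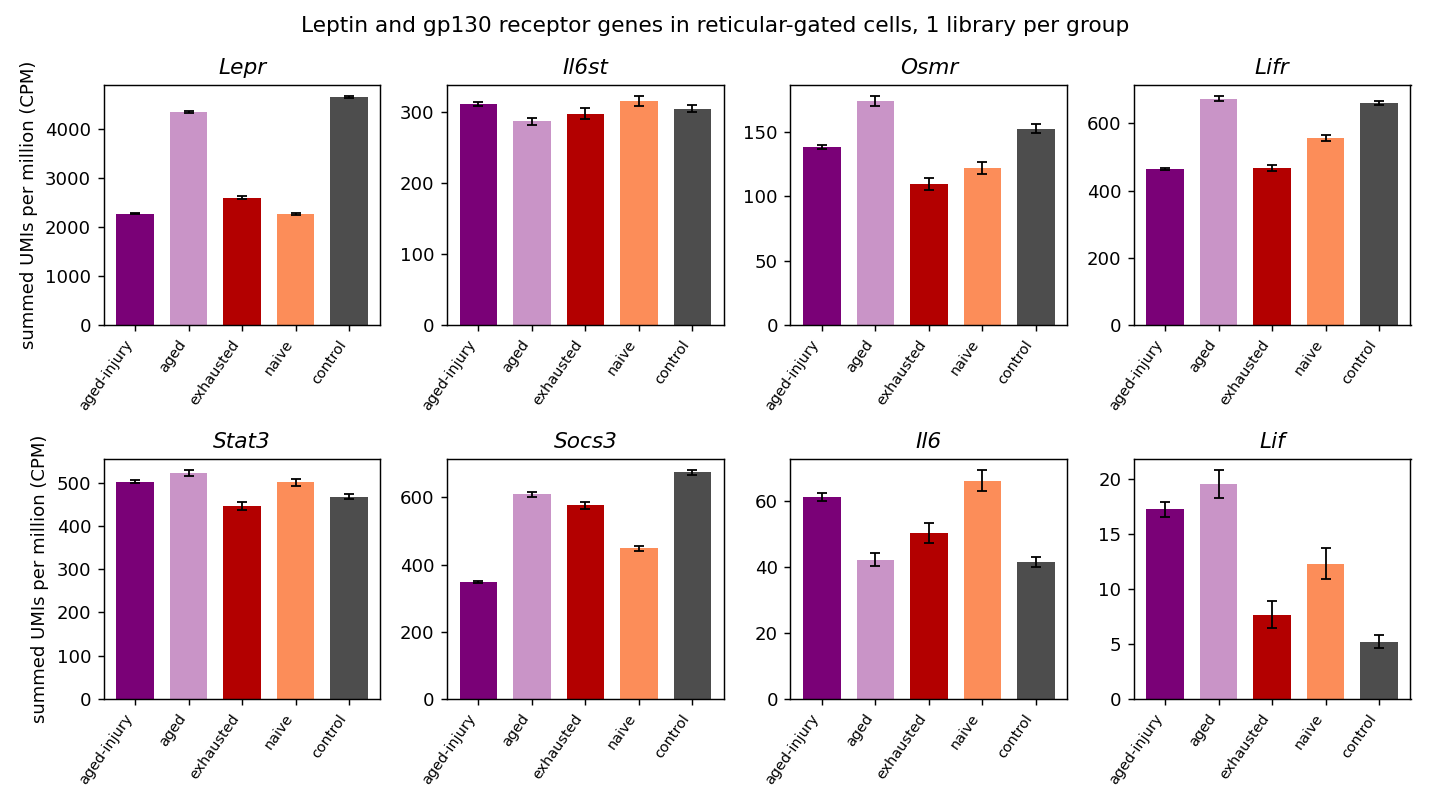
Summed UMIs per 1000000 (CPM, y axis from 0) of each gene in reticular-gated cells of the 5 libraries, with exact Poisson 95% intervals that cover counting error only. Lepr stood at 2272, 2604 and 2275 CPM in aged-injury, exhausted and naive, below aged at 4347 and control at 4649 CPM, while Il6st kept between 286 and 314 CPM.

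Ranked by level in reticular-gated cells, Lepr ran from aged-injury through naive, exhausted and aged up to control. The intervals of aged-injury and naive overlapped, from 2264 to 2280 and from 2256 to 2294 CPM, and the others did not. For Lifr the intervals of aged-injury and exhausted overlapped, as did those of aged and control, so the libraries fell into a low pair, naive, and a high pair. For Il6st every library overlapped its neighbours in the order, which ran from aged up to naive. Stat3 in aged-injury and naive and Il6 in aged and control overlapped as well. For Osmr, Socs3 and Lif no neighbouring intervals overlapped, with exhausted lowest for Osmr, aged-injury lowest for Socs3 and control lowest for Lif. These intervals leave out the spread between cells too, so intervals that do not overlap order the libraries by counting error only.

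Of the 7 genes with at least 20 CPM in either library, 1 was at least 1.5-fold higher in naive than in control, Il6, against 9.95% of the 6847 genes measured at that level. Lepr and Socs3 were at least 1.5-fold lower, 2 of 7, against 4.02% of genes. In exhausted against control, 0 of 7 were that much higher, against 3.26% of 6651 genes, and 1 of 7, Lepr, was that much lower, against 2.8%. Between exhausted and naive, 0 of 7 passed in either direction, against 0.971% of 6798 genes higher and 2.93% lower. Between aged and control, 0 of 7 passed as well, against 1.66% of 6442 genes higher and 1.09% lower. In aged-injury against aged, 0 of 7 passed higher, against 8.29% of 6755 genes, and 2 of 7, Lepr and Socs3, passed lower, against 3.97%. The median log2 ratio over the 7 genes was -0.25 in naive over control, where it was 0.13 over all genes measured. In aged-injury over aged it was -0.33, against 0.11 over all genes. Scaling by trimmed means (TMM) moved the all-gene median in naive over control to -0.01 and the share of higher genes among those past 1.5-fold to 50.3%, from 71.2% under total UMIs. In exhausted over naive that share was 47.2% under TMM and 24.9% under total UMIs.

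Over all stromal-gated cells, which add the osteoblast lineage, pericytes, fibroblasts, cartilage and fat cells, the same counts of the 7 genes resulted. In naive over control, 1 was higher and 2 were lower, against 10.5% and 4.53% of genes. In exhausted over control, 0 were higher and 1 was lower, against 3.75% and 2.56%. In exhausted over naive and in aged over control 0 passed, against 1.21% higher and 3.35% lower in the exhausted pair and 1.59% higher and 1.25% lower in the aged one. In aged-injury over aged, 0 were higher and 2 were lower, against 10% and 5.64%.

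**Figure D2:**
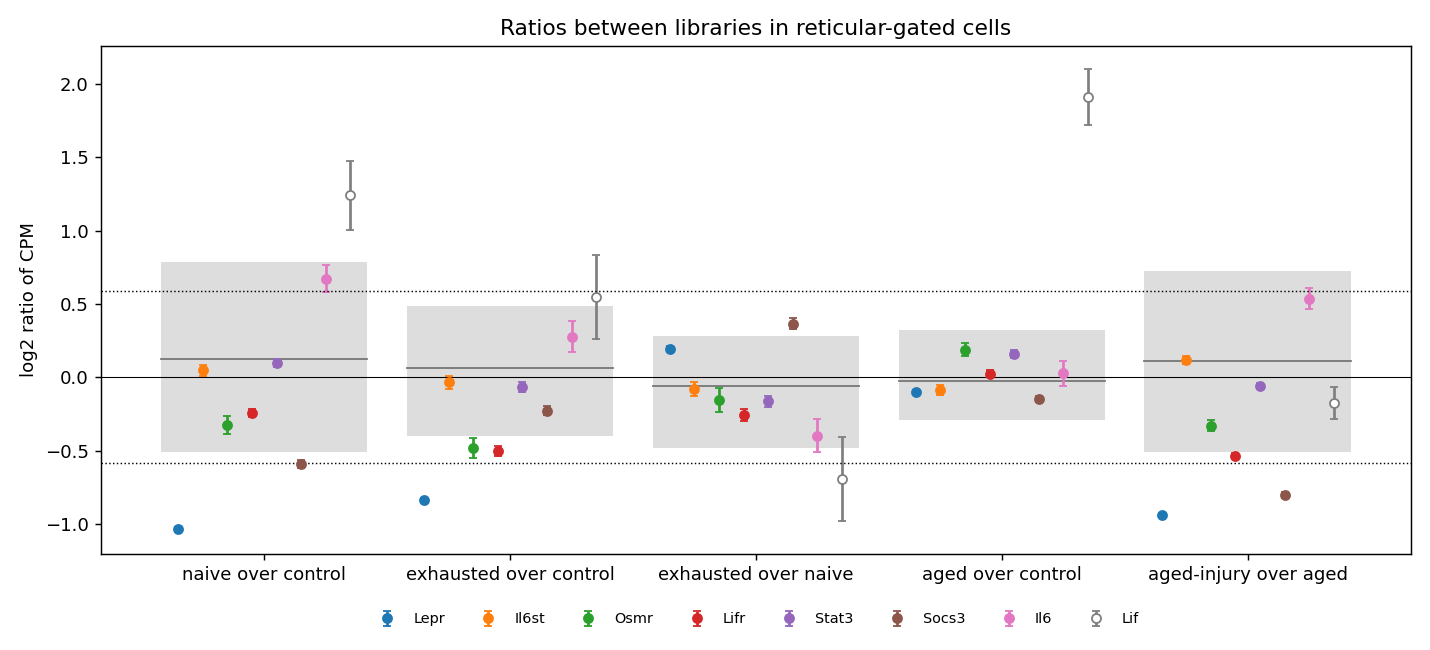
Log2 ratio of CPM (y axis) of each gene between libraries in reticular-gated cells, with 95% counting intervals, for 5 comparisons along the x axis. Grey bands run over the 5th to 95th percentile of all genes with at least 20 CPM, grey lines mark their medians, dotted lines mark 1.5-fold, and open points mark Lif, under 20 CPM; Lepr lies below the band in all 3 comparisons of an ablated with an uninjured library.

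Within this sort, Lepr UMIs lay mostly in the reticular class. Of 974606 Lepr UMIs in all kept cells, 95.9% lay in reticular-gated cells, which were 68.8% of kept cells. The sort selected on a reporter switched on through the Lepr gene, so this share does not describe unsorted marrow. A Lepr UMI was found in 96.2%, 99.0%, 97.4%, 96.3% and 99.1% of reticular-gated cells of aged-injury, aged, exhausted, naive and control. Nearly every reticular-gated cell thus still had a Lepr UMI after ablation, while the mean number per cell at equal depth was lower. A single UMI can also be background, as the blood cells below show. The parts of cell mix and of change within cells in the lower mean were not tested. At 3000 UMIs per cell, the mean was 7.56 Lepr UMIs in aged-injury cells and 12.7 in aged cells. It was 7.90 in exhausted, 6.94 in naive and 13.6 in control cells. The most Lepr-rich 1% of cells held only 2.79% to 3.92% of the UMIs.

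Blood cells of the same sort also carried Lepr UMIs, in 37.5%, 34.1%, 12.2%, 16.9% and 44.7% of cells in the same order, at median depths of 6991 to 8207.5 UMIs against 6667 to 9256 in reticular-gated cells. Blood-gated cells should not express the gene. There were 7.48 to 16.6 Lepr UMIs per 100 Cxcl12 UMIs over 17 sums of blood classes, and 7.91 to 12.7 per 100 in reticular-gated cells. Other receptor chains did not keep the reticular proportion: blood sums had 2.63 to 23.2 Lifr UMIs per 100 Cxcl12 UMIs, against 1.44 to 2.28 in reticular-gated cells, and 0.456 to 5.57 Osmr UMIs, against 0.337 to 0.498. Lepr stood at 15.7 to 108 CPM in blood classes, which is taken as its background level, and whether free RNA accounts for the other chains there was not tested. The endothelial-gated values of 107 to 407 CPM and the osteoblast-lineage values of 176 to 389 CPM were higher than in the blood classes of the same library.

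The reticular class was not made of the same cells in each library, so Lepr was also read within clusters, which were computed without the 8 genes. Most control and aged cells of the class fell in cluster 0, led by Angptl1 and Cntn1, with 4175 and 3475 cells, against 3054 aged-injury, 294 exhausted and 139 naive cells. Cluster 1, led by Cbln1 and Adipoq, held 4260, 297, 866, 795 and 371 cells of aged-injury, aged, exhausted, naive and control. Within cluster 0, Lepr stood at 3564 CPM in aged-injury and 4796 in aged, and at 3349 in exhausted, 3742 in naive and 5135 in control. Within cluster 1 it stood at 2628 CPM in aged-injury and 3542 in aged, and at 2826 in exhausted, 2633 in naive and 3717 in control. Over the clusters with at least 50 cells of both libraries, Lepr was lower in naive than in control in 8 of 8, at ratios of 0.527 to 0.880. It was lower in exhausted than in control in 7 of 7, at 0.584 to 0.857, and lower in aged-injury than in aged in 7 of 8. The exception was cluster 7, with 1426 CPM in aged-injury and 1197 in aged. Of its 1357 cells only 571 passed the reticular gate, and its median depth was 1848 UMIs in aged-injury and 4800 in aged. Clusters 5, 11 and 23 are not among these 8, since they held only 21, 1 and 26 aged cells. They held 1850, 807 and 214 aged-injury cells, with Lepr at 1777, 203 and 918 CPM there. The whole-class level includes those of their cells that passed the gate. Inside clusters 0 and 1 the naive to control ratios were 0.729 and 0.708, closer to 1 than the 0.489 of the whole class.

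**Figure D3:**
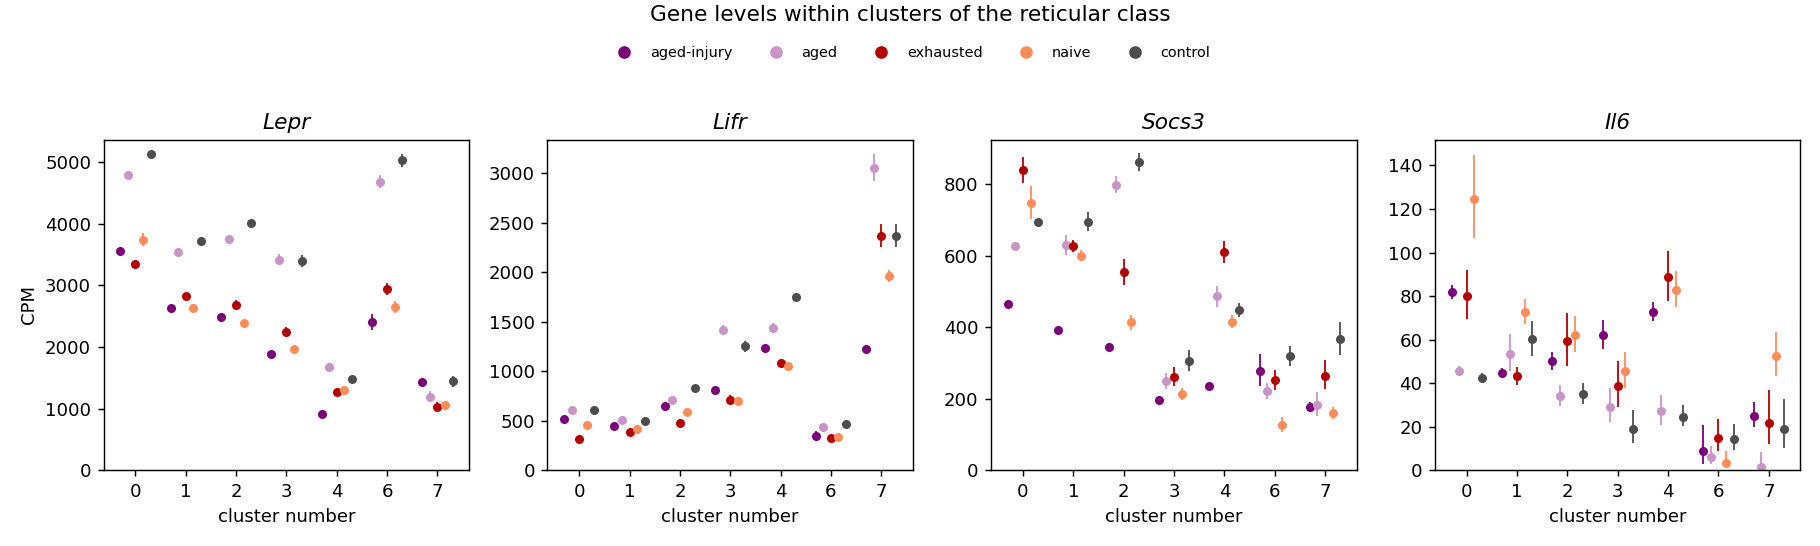
CPM (y axis from 0) of Lepr, Lifr, Socs3 and Il6 within 7 clusters of the reticular class (cluster number on the x axis), 1 point per library with its 95% counting interval. In clusters 0 to 3 and 6, Lepr was lower in aged-injury than in aged and lower in exhausted and naive than in control, while Socs3 in cluster 0 was 840 CPM in exhausted and 748 in naive, against 695 in control.

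Il6st, the gene of the shared gp130 chain, was the steadiest of the receptor genes in reticular-gated cells. It stood at 310, 286, 297, 314 and 304 CPM in aged-injury, aged, exhausted, naive and control, and its 5 ratios lay between 0.941 and 1.08. At 3000 UMIs per cell, an Il6st UMI was found in 57.1%, 52.0%, 53.9%, 57.6% and 54.3% of cells. The gene was most abundant in endothelial-gated cells, with 992 CPM in 622 aged-injury cells, 2068 in 183 exhausted cells, 1124 in 266 naive cells and 2543 in 53 control cells. Between those endothelial libraries it was 1.84-fold higher in exhausted than in naive (1.75 to 1.94) and 2.26-fold lower in naive than in control (2.11 to 2.43 by counting error). The naive value was not particular to Il6st. Lepr, Osmr, Lifr, Stat3, Socs3 and Il6 were lower there too in naive than in control, at ratios of 0.419 to 0.639. The share of all genes that low was not computed for endothelial-gated cells. The aged library had under 50 endothelial-gated cells and gives no value. Macrophage-gated cells had 57.3 to 92.1 CPM of Il6st, and neutrophil-gated cells 8.91 to 15.8 CPM.

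Lifr had its highest level in the osteoblast lineage, the cells gated by Sp7, Ibsp, Bglap and similar bone genes. It stood there at 806 CPM in 1282 aged-injury cells and 2059 in 138 aged cells, and at 1469 in 123 exhausted, 1546 in 245 naive and 2031 in 202 control cells. In reticular-gated cells it stood at 464 CPM in aged-injury and 672 in aged, a 1.45-fold lower value (1.43 to 1.47). In the same class it was 466 in exhausted, 557 in naive and 660 in control. None of these ratios passed 1.5-fold. Inside clusters, Lifr was lower in aged-injury than in aged in 8 of 8 and lower in naive than in control in 8 of 8, at ratios of 0.563 to 0.846 for the naive pair. It was lower in exhausted than in control in 6 of 7, and in cluster 7 the interval of that ratio included 1.

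In the osteoblast lineage, 4 of the 6 genes with at least 20 CPM were at least 1.5-fold lower in aged-injury than in aged, where 31.1% of 6750 genes were that much lower, and 0 of 6 were that much higher, against 11.7%. The median log2 ratio over the 6 genes was -1.24, and over all genes measured it was -0.24. Lifr was 2.55-fold lower in aged-injury than in aged (2.44 to 2.67), Osmr 2.53-fold (2.11 to 3.02), Socs3 2.52-fold (2.17 to 2.92) and Lepr 2.21-fold (1.99 to 2.44). The median depth of those cells was 16134.5 UMIs in aged-injury and 6480 in aged, which CPM scales for. The mix of cells differed as well. The median osteoblast-lineage score was 0.465 in aged-injury and 0.393 in aged, and the median reticular score 0.0902 and 0.128. Of the clusters put with this lineage, cluster 9 held 790 aged-injury and 77 aged cells, and cluster 16 held 597 and 19. The part of depth and of this mix in the result was not tested. In the young pairs the same genes moved less there, with Lifr ratios of 0.761 in naive and 0.723 in exhausted over control. Whether the old and young ratios differ beyond the spread between animals cannot be tested with 1 library a group.

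Osmr, the oncostatin M receptor chain, stood in reticular-gated cells at 138 CPM in aged-injury and 174 in aged, and at 109 in exhausted, 122 in naive and 153 in control. The exhausted to control ratio was 0.718 (0.685 to 0.752) and the aged-injury to aged ratio 0.796 (0.776 to 0.816). Inside clusters the old pair did not keep that direction. Osmr was lower in aged-injury than in aged in 1 of 8 clusters, higher in 2, and in 5 the interval included 1. It was lower in exhausted than in control in 5 of 7 and lower in naive than in control in 5 of 8, with 0 higher in either pair. Endothelial-gated cells had 147, 206, 158 and 318 CPM in aged-injury, exhausted, naive and control. Over the blood classes Osmr did not exceed 23.0 CPM.

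The partner chains were detected together in a minority of cells. At 3000 UMIs, Osmr and Il6st were both detected in 18.1%, 18.4%, 13.2%, 16.2% and 18.5% of reticular-gated cells of aged-injury, aged, exhausted, naive and control. Lifr and Il6st were both detected in 36.3%, 37.6%, 33.1%, 37.1% and 40.2%. In control, Osmr was found in 34.1% of cells with Il6st and 30.2% of cells without it, and the gap was smaller in exhausted, at 24.5% and 24.3%. A missing UMI at this depth does not show that a chain is absent.

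**Figure D4:**
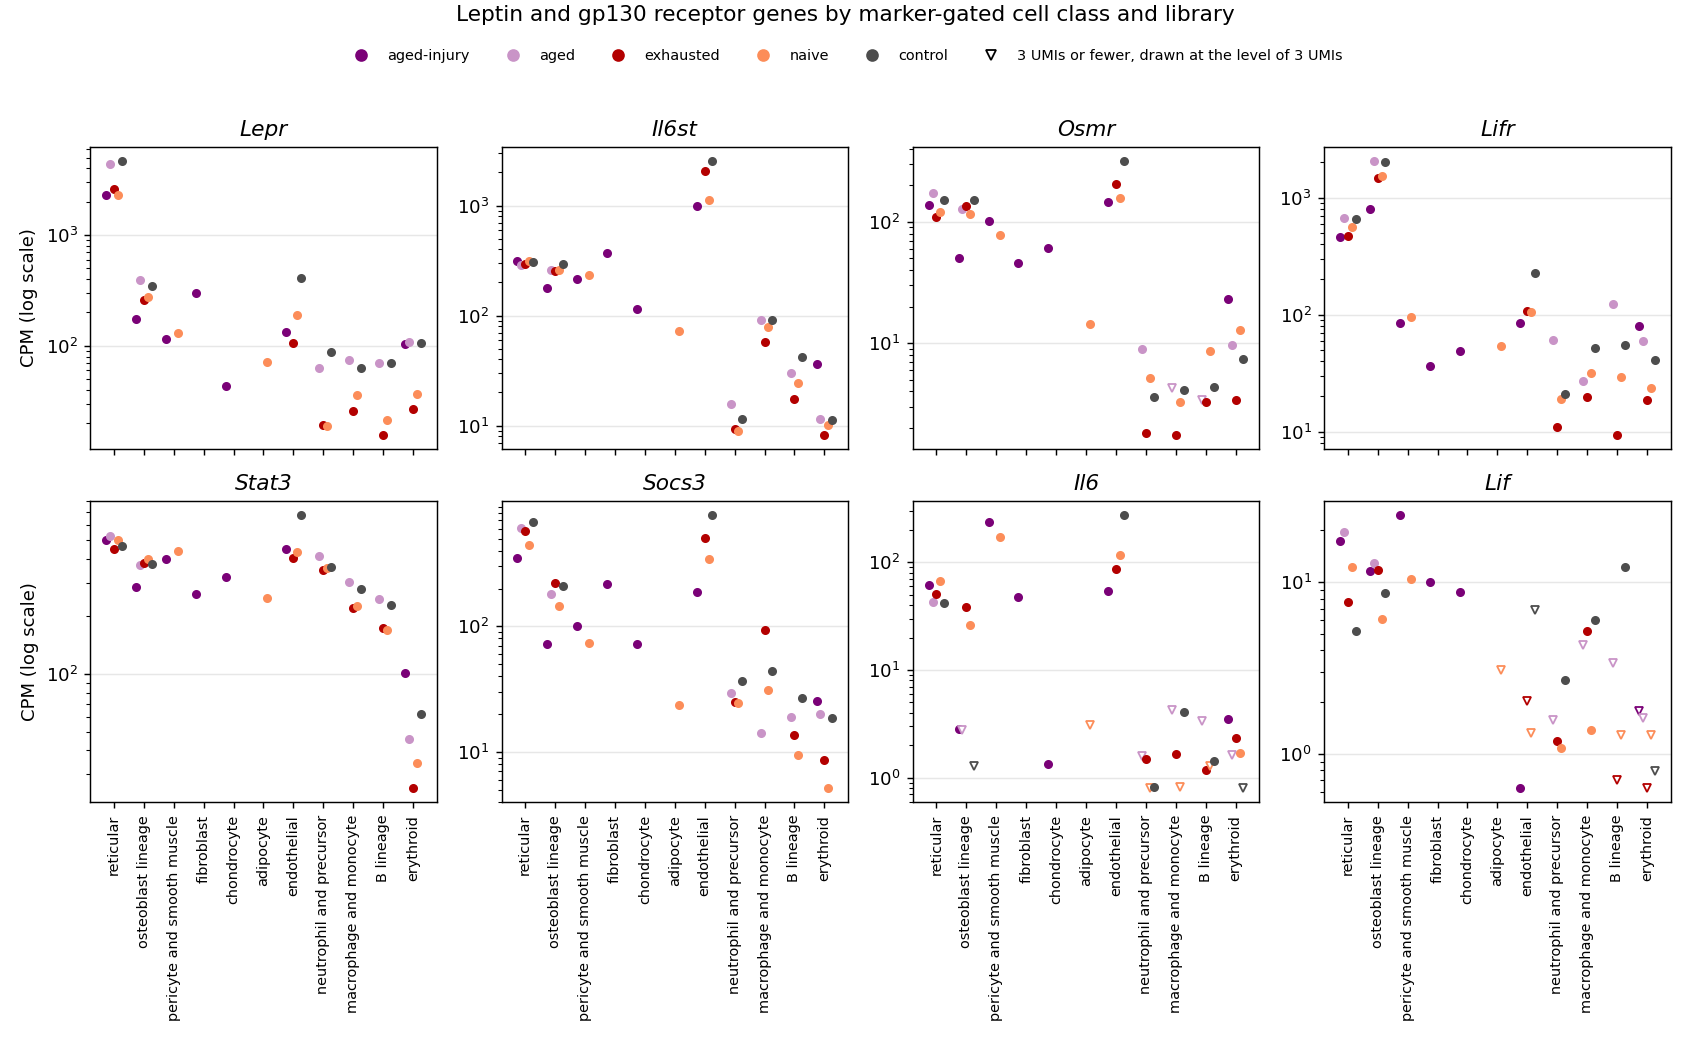
CPM on a log scale (y axis) of each gene by marker-gated cell class (x axis), 1 point per library with at least 50 cells of the class; open triangles mark sums of 3 UMIs or fewer, drawn at the level of 3 UMIs. Lepr is highest in reticular-gated cells, Lifr in the osteoblast lineage and Il6st in endothelial-gated cells, in every library with at least 50 cells of those classes.

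Stat3, the transcription factor that these receptors activate, was the most evenly spread of the genes over cell classes. In reticular-gated cells it stood at 502, 523, 447, 501 and 468 CPM in aged-injury, aged, exhausted, naive and control, at ratios between 0.892 and 1.12 in the 5 comparisons. Neutrophil-gated cells had 348 to 415 CPM, and 4519 of the 203708 Stat3 UMIs of all kept cells lay in macrophages. The direction within clusters was another one. Aged-injury over aged was 0.961 (0.947 to 0.975) over all reticular-gated cells, yet Stat3 was higher in aged-injury within 6 of 8 clusters and lower in none of them. In cluster 2 it stood at 899 CPM in aged-injury and 757 in aged. These are transcript levels, and the phosphorylation of the protein was not measured.

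Socs3, which Stat3 induces and which then blocks the receptor, was lower after a first ablation at both ages. It stood at 349 CPM in aged-injury and 609 in aged reticular-gated cells, a 1.75-fold lower level (1.72 to 1.77). It was 448 CPM in naive and 675 in control, 1.51-fold lower (1.47 to 1.54), and 577 in exhausted, which was 1.29-fold above naive (1.25 to 1.32). At 3000 UMIs per cell, a Socs3 UMI was found in 49.1% of aged-injury and 60.3% of aged cells, and in 60.0% of exhausted, 44.2% of naive and 61.7% of control cells. The naive value sat at the edge of the fold and fell inside it, at a ratio of 0.675 to 0.732, under 5 of 11 other settings. It was also not shared by every cluster: in cluster 0 Socs3 stood at 748 CPM in naive and 695 in control, while it was lower in naive in the other 7 clusters. Exhausted was above naive in 8 of 8 clusters.

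The immediate early genes Fos and Junb, which cells induce within minutes of stimulation and also while tissue is dissociated, are given beside Socs3. Fos stood at 5570 CPM in aged-injury and 7495 in aged reticular-gated cells, and at 6543 in exhausted, 4082 in naive and 8925 in control. Junb stood at 956 CPM in aged-injury and 1487 in aged, and at 1210 in exhausted, 913 in naive and 1446 in control. Both were lower in aged-injury than in aged, at ratios of 0.743 for Fos and 0.643 for Junb, and higher in exhausted than in naive, at 1.60 and 1.33. Their part in the Socs3 values was not tested. Egr1, another immediate early gene, was the gene most like Socs3 over 37 sums of library and class, with a Pearson correlation of 0.925 of log2(CPM + 1). Those sums share libraries and depth, so the value is a description.

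The Socs3 promoter is shown because Socs3 is the textbook Stat3 target among the 8 genes. In RefSeq's GRCm38.p6, which is an older build than the files' GRCm39, the 250 bases before the start site lie on the minus strand at chr11:117969367-117969616. Capitals mark the only match there to TTCNNNGAA, the palindromic core that STAT dimers can bind.

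Socs3: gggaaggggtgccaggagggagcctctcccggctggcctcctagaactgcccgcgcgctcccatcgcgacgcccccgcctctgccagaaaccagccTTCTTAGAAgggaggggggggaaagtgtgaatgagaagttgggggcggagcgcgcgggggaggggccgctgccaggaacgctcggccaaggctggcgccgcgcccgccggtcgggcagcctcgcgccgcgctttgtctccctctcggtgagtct

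The match begins 154 bases before the start site. The motif reads the same on both strands and is held by 8.30% of 32851 promoter windows of 300 bases. The windows of the other 7 genes hold no match, which says only that these letters are not within 250 bases before or 50 bases after their start sites. No binding was measured in these libraries.

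Il6, the ligand gene of interleukin-6, was higher in the ablated libraries over all reticular-gated cells, but not in every cluster. It stood at 61.4 CPM in aged-injury and 42.4 in aged, and at 50.3 in exhausted, 66.2 in naive and 41.6 in control. Naive was 1.59-fold above control (1.497 to 1.697) and aged-injury 1.45-fold above aged (1.38 to 1.52). Under TMM scaling the naive ratio was 1.46, and with cells thinned to 3000 UMIs it was 1.43, and with a reticular score of 0.6 to 0.8 alone 1.48, all inside 1.5-fold. The aged-injury ratio went past the fold with thinned cells, at 1.52, and without cells holding blood marker UMIs, at 1.69. The share of cells with an Il6 UMI at that depth was 7.88% in aged-injury (7.42% to 8.36%) and 4.76% in aged (4.19% to 5.38%). It was 6.60% in exhausted, 6.19% in naive and 4.80% in control, where the intervals of naive and control overlapped. Inside clusters, Il6 was higher in naive than in control in 6 of 8 and lower in 2. It was higher in exhausted than in control in 4 of 7 and lower in 1, and higher in aged-injury than in aged in 5 of 8 and lower in 1. In cluster 1 it stood at 44.8 CPM in aged-injury and 53.4 in aged, and at 43.2 in exhausted, 72.8 in naive and 60.2 in control.

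A small share of the cells held much of the Il6. The richest 1% of reticular-gated cells held 43.5% of its UMIs in aged-injury, 55.8% in aged, 42.8% in exhausted, 51.1% in naive and 54.3% in control. The counting intervals of summed UMIs are too narrow for such a gene, since they do not cover which cells were sampled. This is not limited to Il6. Counting error alone would put the variance of UMIs over thinned cells near their mean. The variance was 3.82 to 5.92 times the mean for Il6, 3.56 to 4.07 times for Lepr, 3.02 to 5.07 for Socs3 and 2.78 to 3.93 for Lifr. For Lif it was 2.03 to 2.53 times, and it was nearest the mean for Il6st, at 1.21 to 1.36 times. Over the whole class, cells with Il6 had Socs3 more often. The levels of both genes differed between clusters, and the part of this cell mix in the gap was not tested. In aged-injury, 58.1% of cells with an Il6 UMI and 48.4% of cells without one had a Socs3 UMI at 3000 UMIs per cell. The same shares were 82.0% and 59.2% in aged, 77.4% and 58.8% in exhausted, 73.0% and 42.3% in naive, and 82.2% and 60.6% in control. The gap was smallest in aged-injury.

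**Figure D5:**
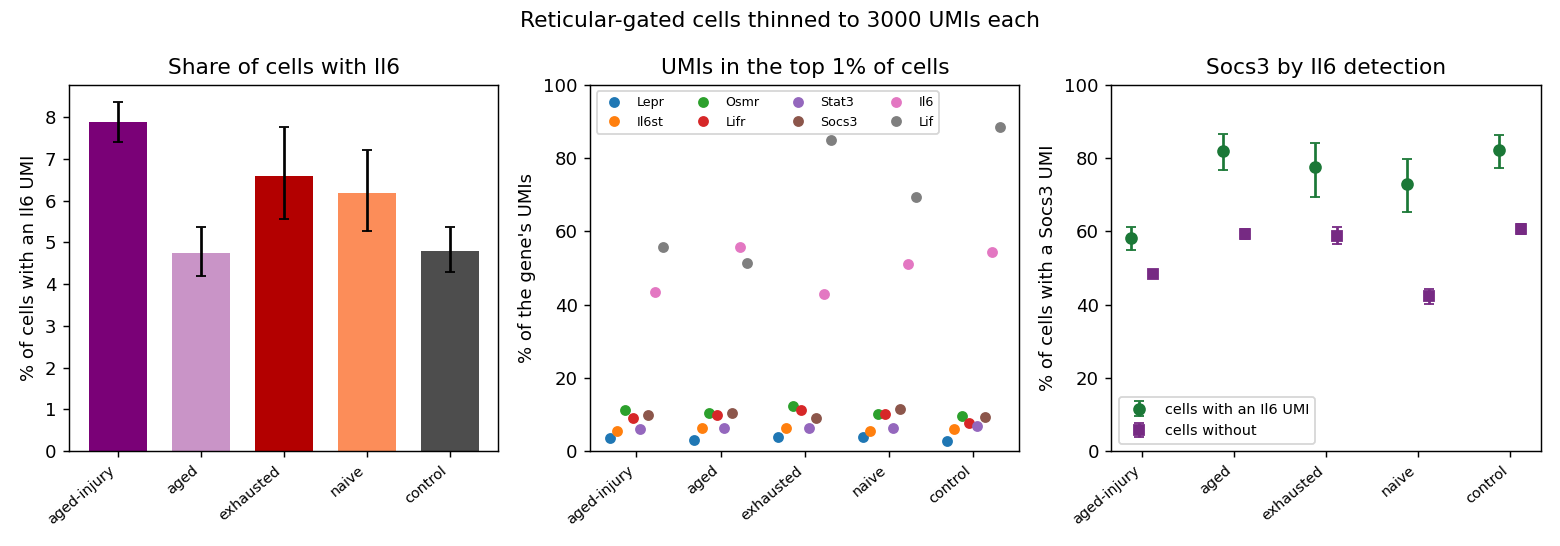
Reticular-gated cells thinned to 3000 UMIs: share of cells with an Il6 UMI (left, bars from 0), share of each gene's UMIs held by the richest 1% of cells (middle), and share of cells with a Socs3 UMI among cells with and without Il6 (right), by library on the x axis with Clopper-Pearson 95% intervals in the left and right panels. Il6 and Lif sit far above the other 6 genes in the middle panel, but they were also detected in the fewest cells, which by itself raises this share.

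Pericyte and smooth muscle cells carried more Il6 per UMI than the reticular class, endothelial cells did so in the 3 young libraries, and the osteoblast lineage carried less. The pericyte and smooth muscle class, gated by Acta2, Rgs5 and similar genes, had 238 CPM in 288 aged-injury cells and 171 CPM in 109 naive cells, and the other libraries had too few such cells. Endothelial-gated cells had 54.2 CPM in aged-injury, 86.6 in exhausted, 116 in naive and 277 in control. Control was thus the highest endothelial value and the lowest reticular one, but its endothelial value rests on 17 of 53 cells. The osteoblast lineage held 78 Il6 UMIs in 9 of 245 naive cells and 46 in 8 of 123 exhausted cells, against 2 UMIs in 202 control cells. The naive to control ratio there was 30.5 with an interval of 8.18 to 257, and no caller removed doublets.

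Lif, the ligand gene of leukaemia inhibitory factor, was rare. It stood at 17.2 CPM in aged-injury, 19.5 in aged, 7.60 in exhausted, 12.3 in naive and 5.19 in control reticular-gated cells. Both old libraries lay above all 3 young ones. Aged was 3.76-fold above control (3.30 to 4.29), on 928 and 308 UMIs, and naive was 2.36-fold above control (2.01 to 2.77), on 307 and 308 UMIs. At 3000 UMIs per cell a Lif UMI was found in 3.02% of aged-injury, 3.67% of aged, 1.34% of exhausted, 2.08% of naive and 1.20% of control cells. Within cluster 0 the Lif level in aged and control still differed, on 570 UMIs in 3475 aged cells and 247 in 4175 control cells.

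Some partners of the system lay mainly in other classes, and others had most of their UMIs in the reticular class, the largest class. Osm, the gene of oncostatin M, was found mainly in blood cells: neutrophil-gated cells had 277 CPM in aged, 286 in exhausted, 222 in naive and 271 in control, and 69.6% of all 9189 Osm UMIs lay in that class. Reticular-gated cells had 0.0265 to 1.20 CPM of Osm. The interleukin-6 receptor chain Il6ra stood at 489 CPM in aged, 334 in exhausted, 413 in naive and 479 in control macrophages, and at 4.23 to 5.53 CPM in reticular-gated cells of the 5 libraries. Leptin itself was near absent, with 10 Lep UMIs in all kept cells, of which 5 lay in 75 naive adipocytes. By contrast, reticular-gated cells held 87.4% of the UMIs of Cntfr, the receptor chain for ciliary neurotrophic factor. They held 69.8% of the UMIs of the interleukin-11 receptor chain Il11ra1 and 71.8% of those of the ligand gene Clcf1. Both of these shares lay near the share of the class among kept cells, 68.8%. Il11ra1 stood at 22.8 to 37.4 CPM in reticular-gated cells and at 196 CPM in 155 fibroblast-gated cells of aged-injury.

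A list of 50 other genes of the pathway was read in reticular-gated cells, of which 33 to 35 had at least 20 CPM in a comparison, and none of its 9 ligand genes did. In naive over control, 5 of 33 were at least 1.5-fold higher, against 9.95% of all genes measured: the kinase Jak2 at 1.69-fold, the inhibitor Socs2 at 1.57-fold, and Il4ra, Timp1 and Lbp. Another 4 were at least 1.5-fold lower, against 4.02%: Junb, Fos, Myc and Lcn2, the last an abundant neutrophil transcript with 14.3 CPM in naive and 33.8 in control. The median log2 ratio over the 33 genes was 0.10, against 0.13 over all genes measured.

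In exhausted over control, 3 of 35 were higher, against 3.26% of all genes, and 0 were lower, against 2.8%. The 3 were Saa3 at 9.44-fold with 23.9 CPM in exhausted and 2.53 in control, Timp1 at 1.83-fold and Lbp at 1.61-fold. These 3 encode acute-phase or secreted proteins. In exhausted over naive, 4 of 35 were higher, against 0.971%, and 0 were lower, against 2.93%; the 4 were Cish, Fos, Lcn2 and Saa3. In aged over control, 3 of 33 were higher and 1 was lower, against 1.66% and 1.09%: Cntfr was 1.86-fold higher at 29.7 CPM in aged and 15.9 in control, Jak2 and Stat5a were higher, and Lcn2 was lower. In aged-injury over aged, 5 of 34 were higher, against 8.29% of all genes, among them Timp1 at 4.38-fold and Saa3 at 2.79-fold. Another 5 were lower, against 3.97%: Cntfr at a ratio of 0.310, and Stat5a, Junb, Cebpb and Cebpd. The median over the 34 genes was -0.09, against 0.11 over all genes.

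For each of the 7 genes with enough UMIs, the genes with the most similar levels over the 37 sums of library and class were listed among 9371 genes. Lepr was closest to Fbln5 at a correlation of 0.951, with Cxcl14 and Igfbp5 next. Il6st was closest to Ece1 at 0.960, Osmr to Tshz2 at 0.975, Lifr to Lmo7 at 0.921, Stat3 to Pcnx at 0.954 and Il6 to Adamts4 at 0.921. The sums of 1 library share its depth and free RNA, and Cxcl14 is itself a reticular gate marker.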

How the data were processed

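The authors deposited 1 matrix of raw UMI counts per library. Seurat 5.1 and the GRCm39 build are named per the submitters' processing notes; the aligner, counting tool and cell caller were not given in the sources used here. Libraries listed 26484 to 27845 detected genes and were joined by symbol, an unlisted symbol counting as 0. They held 224155538, 62179497, 68170277, 58895655 and 95397522 UMIs in aged-injury, aged, exhausted, naive and control.

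Cells were kept with 500 genes or more, 1000 UMIs or more and under 25% mitochondrial UMIs. For each marker of 15 lists, log1p of UMIs per 10000 was divided by its 95th percentile among cells with a UMI, capped at 1 and averaged over the list. A cell took the highest-scoring class if that score was at least 0.2 and the second was at most 0.67 of it. No doublet caller was run; the second condition drops some mixed cells.

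UMIs were summed over the cells of a class and library and given per 1000000 UMIs (CPM), with exact Poisson intervals for levels, exact conditional binomial intervals for ratios and Clopper-Pearson intervals for shares, at 95%. Intervals and floors (3 counts) cover counting error only. A gene counted as past the fold at 1.5-fold with at least 20 CPM in either library. To compare shares across depths, each reticular-gated cell was thinned to 3000 UMIs, which left out 11.1%, 19.6%, 19.9%, 15.8% and 6.97% of cells in aged-injury, aged, exhausted, naive and control. The ratios and intervals were run on simulated Poisson counts, the error model that the intervals assume. This checks the computation only, and cannot show that the intervals cover the spread between cells. Clusters came from the Leiden method in scanpy 1.11.5 over variable genes without the 8 genes and the pathway list. TMM factors came from edgeR 4.0.16 on the deposited counts of kept reticular-gated cells, summed by library.

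The genes, marker lists and pathway list were chosen with earlier results of these data known. Named genes were the 8 genes, those of the pathway list past the fold, and the most similar genes by Pearson correlation of log2(CPM + 1). A gene of the pathway list past the fold is not reported here. Promoters came from RefSeq on GRCm38.p6; no coordinates of the files were used.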

Additional observations from a re-analysis of the deposited data

Results flagged for a closer look

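Some ratios went opposite ways in 2 classes or at 2 ages, each with a counting interval on its own side of 1. With 1 library a group none of these differences was tested, and with many ratios side by side some will part by counting error alone.

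At the 2 ages, in reticular-gated cells, the Lif ratio was 0.884 in aged-injury over aged and 2.36 in naive over control. The Stat3 ratio was 0.961 in aged-injury over aged and 1.07 in naive over control, which was 0.979 under TMM scaling. The old ablated mice were studied 1 week after surgery and the young ones 2 weeks after it.

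Endothelial-gated cells parted from reticular-gated cells most often. In naive over control, the endothelial and reticular ratios were 0.419 and 1.59 for Il6, 0.442 and 1.03 for Il6st, whose reticular ratio was 0.945 under TMM scaling, and 0.639 and 1.07 for Stat3, with 53 endothelial-gated control cells. Lepr, Osmr, Lifr and Socs3 had low endothelial ratios in that pair as well, at 0.445 to 0.497. The median reticular score of the endothelial-gated cells was 0.118 in naive and 0.205 in control. In exhausted over control, the Il6 ratios were 0.313 and 1.21. In exhausted over naive, where neither class is that small, they were 1.84 and 0.945 for Il6st, 1.30 and 0.898 for Osmr, and 0.567 and 1.14 for Lepr.

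In the osteoblast lineage, the Il6st ratio was 0.689 in aged-injury over aged, against 1.08 in reticular-gated cells, and 0.891 in naive over control, against 1.03.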

How the results depend on the processing

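Each of the 40 ratios of the 8 genes in reticular-gated cells was recomputed under 11 other settings, 2 of them chosen after seeing the data (a reticular score of 0.6 to 0.8 alone, and cells with at least 5000 UMIs alone). Of these 440 values 0 turned direction for a gene past 1.5-fold, 0 moved by over 1.5 times, and 24 crossed the 1.5-fold line. However, 176 of the 440 fell outside the counting interval of the main ratio, and 264 fell inside it. Outside were 29 of 40 under TMM scaling and 25 of 40 with the score of 0.6 to 0.8. With totals without mitochondrial, ribosomal and haemoglobin genes, 3 of 40 were outside. The counting intervals thus do not cover the changes that processing choices made. Lepr kept ratios of 0.430 to 0.529 in naive over control and 0.446 to 0.610 in aged-injury over aged. Socs3 kept 0.503 to 0.616 in aged-injury over aged. The number of genes past the fold was 3 in naive over control, and became 1 with the score of 0.6 to 0.8, where Socs3 and Il6 fell inside. It became 2 under TMM scaling and with thinned cells, where Il6 fell inside. With totals without mitochondrial, ribosomal and haemoglobin genes and with a gate cut of 0.4 it became 2, as Socs3 fell inside. The same held with a mitochondrial share under 10% and with at least 5000 UMIs. In exhausted over control it became 3 with a mitochondrial share under 10% and 2 with that score, where Lifr passed in both and Osmr in the first. In aged-injury over aged it was 2, and became 3 with no cell filter and with that score, where Lifr passed, and with thinned cells and without cells holding blood marker UMIs, where Il6 passed. In aged over control it became 1, which is Lif reaching 20 CPM, under TMM scaling, with totals without mitochondrial, ribosomal and haemoglobin genes, with a mitochondrial share under 10%, with that score and with at least 5000 UMIs. Without a filter on low counts, 13245, 9404, 9553, 10470 and 11861 genes of all passed in aged-injury over aged, aged over control, exhausted over naive, exhausted over control and naive over control; the cause is the filter's own construction, since genes of few UMIs enter. No paired analysis was possible because each group has 1 library. Depth limits Lif and Il6 outside the reticular class, where sums of a few UMIs come from a few cells.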
